A study of Mus musculus with 6 samples.

Results

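The extracellular matrix is the mesh of collagens, laminins, proteoglycans and adhesive glycoproteins that cells secrete around themselves, and in bone marrow it is made largely by stromal cells, vessels and the osteoblasts of the bone surface. The genes described here were 43 genes of that matrix and of the bone matrix made by osteoblasts, of the 13831 genes that could be named on the array. They were taken by gene symbol, through the sequence record, gene number or array annotation of each probe. The list was drawn up with earlier results of these data known, and 5 of the genes were singled out with their direction known. These were Col5a3, Reln and Emid1 as genes with lower signal and Mgp and Col3a1 as genes with higher signal after MSC transplantation. A probe was matched for 41 genes, each with 1 probe, and 40 genes had a usable value. Fn1 and Ibsp were not analysed here, and the probe of Fbn1 had no usable spot on any array.

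RNA of flushed mouse bone marrow was hybridised to 6 one-colour arrays, 2 for each of 3 groups. Marrow of untreated mice of matching age made up the BM group, and 2 mice were pooled on each array. The HSC group was marrow of mice that had received 9.5 Gy of total body irradiation and then bone marrow cells, which contain the haematopoietic stem cells, with 2 mice on each array. The MSC group was marrow of mice given the same irradiation and then a bulk culture of mesenchymal stromal cells, with 3 mice on each array. The stromal cells came from male C57BL/6J donors, were expanded in culture and carried a retroviral eGFP label, so that all MSC recipients had cells of 1 bulk population. The mice on the arrays were female C57BL/6J according to the labels, aged 6 to 10 weeks, and the study's methods name the recipients C57BL/6J-CD45.1. The methods put the marrow at day 21 after transplantation and the series' design text at 7 months, and the files do not settle which holds. The irradiation is shared by the HSC and MSC groups, so BM differs from both in irradiation and in transplantation together. No group of irradiated mice without cells was among the arrays.

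Fibrillar collagens (types I, III and V here) assemble into the tensile fibres of connective tissue. Type IV collagen, laminins, nidogen and perlecan form the sheet-like basement membrane under endothelium. Small proteoglycans such as biglycan and decorin bind the fibres, while matricellular proteins such as tenascin C tune how cells hold on to the matrix. Osteocalcin, osteopontin and matrix Gla protein are bound to, or regulate, mineral. Metalloproteinases cut the matrix and their tissue inhibitors restrain them.

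Between MSC and HSC marrow, 3 of 29 tested matrix genes passed the test: Mgp was higher and Col5a3 and Reln were lower. Of 31 genes tested between MSC and BM, Col3a1 and Mgp were higher and Reln was lower. Of 22 tested between HSC and BM, 0 passed. The promoters of Col3a1, Col5a3 and Reln are shown because these are the genes past the test for which RefSeq promoter sequence was at hand, and Mgp is named only. Each run covers 150 bases before to 30 after the annotated start of the gene, 5′ to 3′ on the strand of the gene, in GRCm38.p6, and capitals mark matches to 3 core promoter motifs searched on both strands. These were the TATA box with the letters TATAAA, the box named for its letters CCAAT, and the GC box with the letters GGGCGG, which reads CCGCCC where it lies on the opposite strand.
Col3a1 (chr1:45311388-45311567, plus strand): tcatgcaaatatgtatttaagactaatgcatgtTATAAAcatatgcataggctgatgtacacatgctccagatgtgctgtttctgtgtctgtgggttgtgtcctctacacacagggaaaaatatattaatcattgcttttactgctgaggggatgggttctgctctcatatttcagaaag
Col5a3 (chr9:20815038-20815217, minus strand): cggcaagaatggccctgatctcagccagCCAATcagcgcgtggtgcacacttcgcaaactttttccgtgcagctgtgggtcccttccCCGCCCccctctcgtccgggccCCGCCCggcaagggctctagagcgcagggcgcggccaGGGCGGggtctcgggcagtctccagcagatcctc
Reln (chr5:22344676-22344855, minus strand): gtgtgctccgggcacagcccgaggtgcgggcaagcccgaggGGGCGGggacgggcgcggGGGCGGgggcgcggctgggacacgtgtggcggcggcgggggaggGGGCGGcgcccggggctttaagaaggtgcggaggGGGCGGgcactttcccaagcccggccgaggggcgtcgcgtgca

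The Col3a1 window held 38.3% G and C and 1 TATAAA match, whose first base lay at position -117 from the start. The Col5a3 window held 68.3% G and C, a CCAAT match at -122 and GGGCGG matches at -63, -41 and -4. The Reln window, at 80.0% G and C, held 4 GGGCGG matches at -109, -91, -47 and -13. The Col5a3 and Reln windows were thus above the median of all promoters in G and C, 53.9%, and that of Col3a1 was below it. Among the other listed genes, GGGCGG was held by Emid1, lower in MSC than in HSC, and by Col5a1, higher. No link between these windows and the direction of a gene is read. No matches overlapped. Among 32841 promoter windows of the same length, TATAAA was found in 8.37%, CCAAT in 27.05% and GGGCGG in 30.99%. The 30 listed genes with a window had 35 windows, of which 6, 12 and 17 held these motifs. These are matches of letters in a window and no measurement of binding.

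Values are log2 intensities after correction for local background and quantile normalization over the 6 arrays. A spot counts as above background unless the scanner software marked it as near background. Of the 40 genes with values, 19 were above background on all 6 arrays and 3 (Col12a1, Lamb1 and Thbs1) on none, and 35 were above background on MSC replicate 2 against 23 to 29 on each of the other 5 arrays. That array stood apart for the matrix genes. Among 37 genes with a value on every array it held the highest value for 22, MSC replicate 1 for 8 and the other 4 arrays together for the rest. It read higher than MSC replicate 1 for 30 of 39 genes, by a median of 0.34, whereas the second array was higher for 20 of 40 genes in BM (median difference -0.04) and for 22 of 38 in HSC (0.12). The gaps between the MSC arrays ran from 1.82 for Bgn to -1.33 for Vcan. Each result on the MSC group therefore comes with its value on both MSC arrays.

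**Figure D1:**
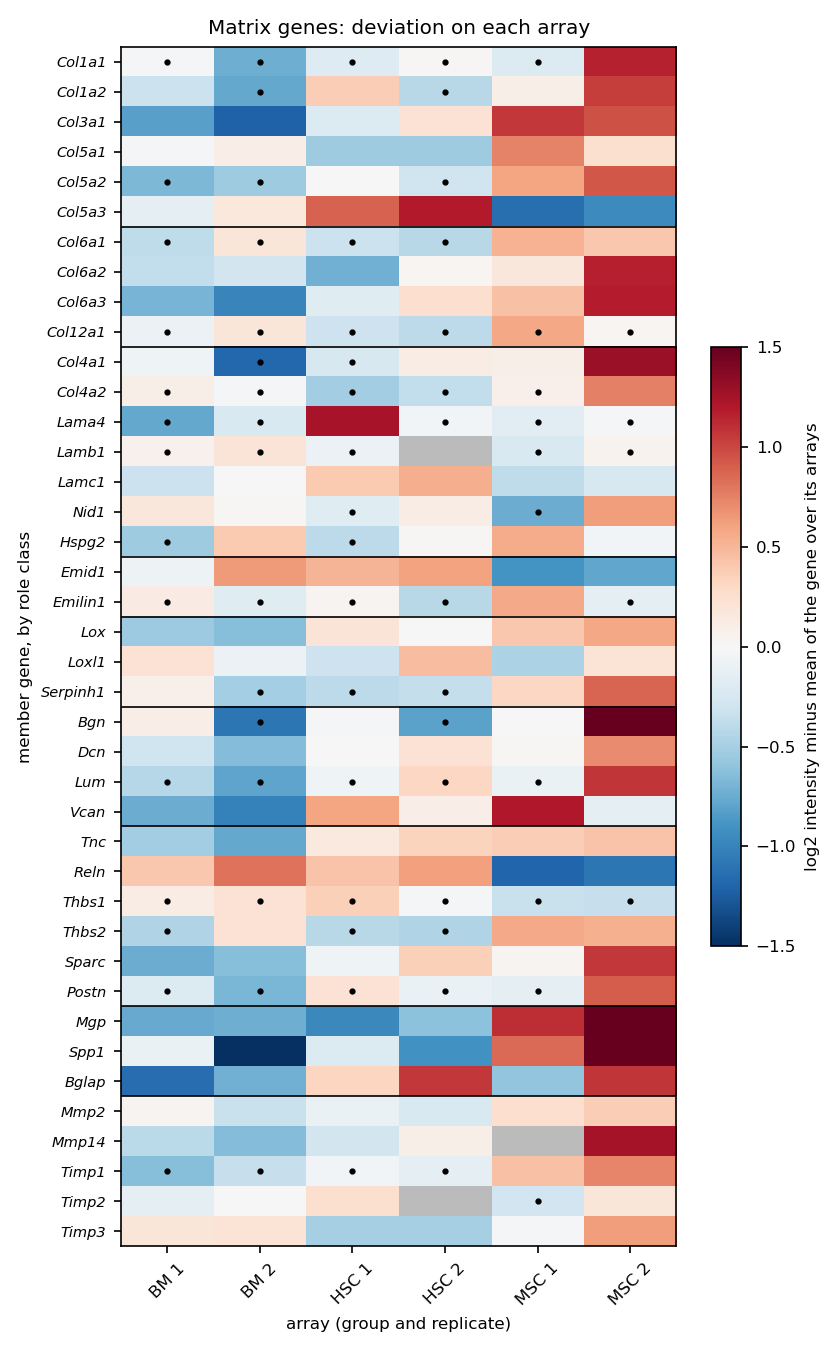
Deviation of each of the 40 matrix genes from its own mean, as log2 intensity (colour, limited to 1.5 in each direction), on the 6 arrays. Horizontal lines part the role classes, black dots mark spots not above background and grey cells have no usable spot. MSC replicate 2 holds the highest value for 22 of 37 genes.

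Markers of other cells moved with the arrays as well. The log2 of the summed intensity of 7 macrophage markers was 15.82 on MSC replicate 2 and 13.71 to 14.39 on the other 5 arrays, and that of 5 osteoclast markers was 14.14 against 12.73 to 12.98. The osteoclast markers differed among themselves. Ctsk, a protease gene, read 11.46 on MSC replicate 2 and at most 8.44 elsewhere. Calcr was instead highest in HSC, with 8.25 on both arrays, and read 7.90 and 7.66 on the MSC arrays. The brightest of the list, Acp5, read 13.74 on MSC replicate 2, so that the sum follows it most. Endothelial markers summed to 11.20 on that array and 10.35 to 10.73 elsewhere, with Cdh5 above background on no array. Mesenchymal stroma markers spanned 12.83 to 13.64 with MSC replicate 2 highest, and osteoblast markers 9.96 to 10.64 with HSC replicate 2 highest. The stroma markers differed among themselves too. On MSC replicate 2 Cxcl12 read 11.56, its highest value, and Pdgfrb 8.03, its lowest. Between MSC and HSC, 2 of the 5 tested stroma markers had differences above 0 and 3 below. Of the stroma list Angpt1 and Ebf3, and of the osteoblast list Runx2 and Phex, were above background on no array, as was the macrophage marker Adgre1. Early B cell markers summed to 12.28 and 12.60 in MSC, 14.46 and 14.57 in HSC and 14.11 and 14.13 in BM. Among the summed markers the log2 differences between MSC and HSC ran from -0.02 for Cd79a to -5.17 for Vpreb3. Vpreb1 (-5.84) lacked a BM value and was left out of the sum. Megakaryocyte and platelet markers summed to 15.15 and 15.12 in BM, 12.81 and 13.21 in HSC and 12.07 and 11.88 in MSC. That sum follows Ppbp most, the brightest of the list, which was saturated on both BM arrays. Pf4 lacked a value on BM replicate 1 and was left out of the sum. The 7 markers tested between MSC and HSC were split, with 3 differences above 0, among them Pf4 (1.14), and 4 below, among them Ppbp (-1.57). Neutrophil markers summed to 17.46 to 17.78, but 6 of the 8 were saturated on 1 array or more, so nothing is read from these sums. The part of these cells in the results below was not tested.

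**Figure D2:**
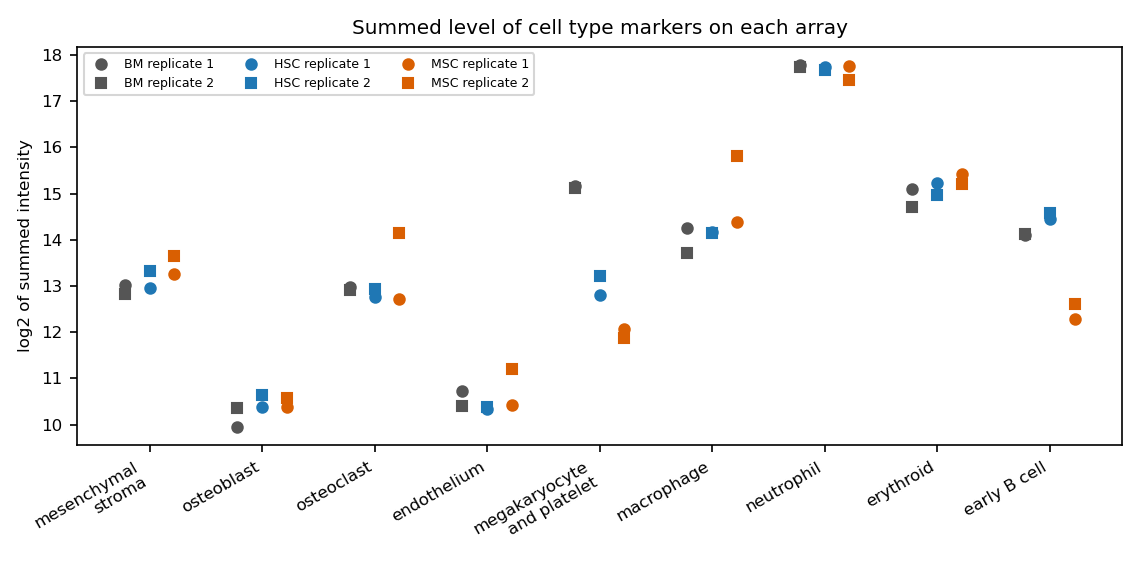
Log2 of the summed intensity of each list of cell type markers (vertical axis) on each of the 6 arrays, coloured by group with circles for replicate 1 and squares for replicate 2. MSC replicate 2 lies above all other arrays for macrophage, osteoclast, endothelium and stroma markers.

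Among the fibrillar collagens, Col3a1 passed as higher in MSC than in BM marrow and Col5a3 as lower in MSC than in HSC marrow. Col3a1 encodes type III collagen, which forms fine reticular fibres in soft tissue and marrow. It read 8.66 and 8.27 on the BM arrays, 9.28 and 9.70 on the HSC arrays and 10.54 and 10.44 on the MSC arrays. The 3 groups did not overlap and stood in the order BM, HSC, MSC. Col3a1 was 4.07-fold higher in MSC than in BM marrow (log2 difference 2.02, SE 0.25, limma adjusted p = 0.0341) and therefore rose. The difference of 1.00 between MSC and HSC did not pass (SE 0.25, adjusted p = 0.137), nor did that of 1.02 between HSC and BM (SE 0.24, adjusted p = 0.642). In RNA of whole marrow, fewer cells of a type and less RNA per cell cannot be told apart, here and for every gene below. The call against BM was kept without BM replicate 1 and lost without any 1 of the other 5 arrays, with adjusted p from 0.0384 to 0.125.

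Col5a3 encodes the alpha 3 chain of type V collagen, a minor component of heterotypic fibres. Its values were 9.03 and 9.33 in BM, 10.06 and 10.36 in HSC and 8.04 and 8.22 in MSC. The groups did not overlap, and BM lay between the HSC and MSC groups. The level was 4.21-fold lower in MSC than in HSC (log2 difference -2.07, SE 0.23, limma adjusted p = 0.0247). Neither group differed from BM past the threshold, with log2 differences of -1.05 for MSC (SE 0.23, adjusted p = 0.168) and 1.03 for HSC (SE 0.23, adjusted p = 0.568). Col5a3, Reln, Emid1 and Thbs2 belong to the genes that the study itself picked from these arrays, by ratio and p-value. Their direction between MSC and HSC on the arrays is therefore not independent evidence. The study also used quantitative PCR on separate mice, though not for Reln. Its methods describe the stromal cells given to these mice both as bulk culture and as a cloned population. Whether the PCR mice had the same cells as the array mice is therefore not settled. By its report that PCR gave the same direction for Emid1, Thbs2 and Col5a3. The call was kept without either BM array and lost without any 1 HSC or MSC array (adjusted p from 0.0303 to 0.106).

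The other chains of these fibres lay the other way from Col5a3. Col5a1, the alpha 1 chain found in nearly all type V collagen, read 9.44 and 9.57 in BM, 8.93 and 8.94 in HSC and 10.21 and 9.70 in MSC. Here HSC was the lowest group and MSC the highest, and no groups overlapped. The difference of 1.03 between MSC and HSC did not pass (SE 0.24, adjusted p = 0.125), nor that of 0.45 between MSC and BM (adjusted p = 0.502). Of 5 fibrillar collagen genes tested between MSC and HSC, 4 had differences above 0 and 1 was called (0.48% of all tested probes). Of 5 tested between MSC and BM, 4 were above 0 and 1 was called (0.43%). The called genes, Col5a3 and Col3a1, were singled out with their direction known, so that nothing is read from these counts. Col1a1, which encodes the main chain of type I collagen in bone, was above background on MSC replicate 2 only and was not tested.

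The type VI collagens, which form beaded filaments around cells, gave differences of one sign between MSC and HSC. Col6a2 read 9.23 and 9.33 in BM, 8.88 and 9.64 in HSC and 9.77 and 10.77 in MSC. Both MSC arrays lay above the other 4. The difference from HSC was 1.01 (SE 0.39, adjusted p = 0.259) and that from BM 0.99 (SE 0.39, adjusted p = 0.371). Without MSC replicate 2 they were 0.52 and 0.49. Col6a1 was not above background in BM or HSC, where its spots read 7.21 to 7.81, and read 8.15 and 8.03 in MSC. It was at least 1.41-fold higher in MSC than in BM (adjusted p = 0.422). All 3 tested type VI genes had differences above 0 against each of HSC and BM, with 0.77 to 1.01 against HSC and 0.56 to 1.65 against BM, and none of these passed limma, while 3 and 2 of them had an unadjusted p under 0.05 (16.9% and 12.4% of all tested probes).

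Basement membrane genes did not share a direction. Lamc1, the gamma 1 laminin chain shared by most laminins, read 8.50 and 8.83 in BM, 9.21 and 9.37 in HSC and 8.45 and 8.59 in MSC. The HSC arrays lay above all others, while MSC and BM overlapped. The difference between MSC and HSC was -0.77 (SE 0.22, adjusted p = 0.166) and that between HSC and BM 0.63 (SE 0.22, adjusted p = 0.897). Col4a1, a chain of the network-forming type IV collagen, read 7.80 and 6.69 in BM, 7.63 and 7.98 in HSC and 7.96 and 9.16 in MSC. It was above background on 1 array each of BM and HSC, the MSC arrays were 1.20 apart, and MSC overlapped HSC. Its difference of 0.75 from HSC was 0.15 without MSC replicate 2. Of 7 basement membrane genes, 3 were tested between MSC and HSC and 4 between MSC and BM, 0 passed in either, and 1 in each had an unadjusted p under 0.05 (16.9% and 12.4% of all probes).

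Emid1 encodes a secreted protein with an EMI domain and collagen-like repeats. It read 9.19 and 9.90 in BM, 9.77 and 9.86 in HSC and 8.37 and 8.49 in MSC. Both MSC arrays lay below the other 4, and BM and HSC overlapped. The differences of MSC from HSC (-1.39, SE 0.27, adjusted p = 0.103) and from BM (-1.12, SE 0.27, adjusted p = 0.215) did not pass. Emilin1, an elastic fibre protein with the same domain, was above background on MSC replicate 1 only.

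Collagen needs chaperones and crosslinking enzymes before its fibres are strong. Lox, a lysyl oxidase that starts the crosslinks, read 8.11 and 8.02 in BM, 8.86 and 8.65 in HSC and 9.07 and 9.24 in MSC. The groups stood apart in the order BM, HSC, MSC. No difference passed, with 1.09 between MSC and BM (SE 0.20, adjusted p = 0.111) and 0.40 between MSC and HSC (SE 0.20, adjusted p = 0.368). Its relative Loxl1 read 9.55 and 9.25 in BM, 9.02 and 9.79 in HSC and 8.86 and 9.54 in MSC, and all 3 groups overlapped. Serpinh1, which encodes the collagen chaperone HSP47, read 8.10 and 8.66 in MSC and was not above background on either HSC array (7.40 and 7.43). It was at least 1.82-fold higher in MSC than in HSC (adjusted p = 0.184). In BM it was above background on 1 array, with 7.86 and 7.27.

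Among the proteoglycan genes, Bgn, which encodes biglycan, read 8.54 and 7.36 in BM, 8.42 and 7.64 in HSC and 8.43 and 10.25 in MSC. Only MSC replicate 2 lay clear of the rest, and 1 array each of BM and HSC was not above background. The difference between MSC and HSC was 1.31 (SE 0.65, adjusted p = 0.358) and was 0.40 without that array. Dcn, which encodes decorin, read 8.82 and 8.46 in BM, 9.12 and 9.33 in HSC and 9.14 and 9.82 in MSC. Both irradiated groups lay above BM and overlapped each other. The differences of Dcn from BM were 0.84 in MSC (SE 0.29, adjusted p = 0.322) and 0.59 in HSC (SE 0.28, adjusted p = 0.897). The 3 proteoglycan genes tested between MSC and either other group had differences above 0 in both, and none passed, while 0 had an unadjusted p under 0.05 against HSC and 2 against BM (16.9% and 12.4% of all probes).

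Reln was the matricellular gene that passed. It encodes reelin, a large secreted glycoprotein best known for guiding neurons in the developing brain. The values were 10.96 and 11.37 in BM, 10.98 and 11.17 in HSC and 9.37 and 9.47 in MSC. BM and HSC overlapped and both lay well above MSC. Reln was 3.36-fold lower in MSC than in BM (log2 difference -1.75, SE 0.23, limma adjusted p = 0.0388) and 3.16-fold lower than in HSC (-1.66, SE 0.23, adjusted p = 0.0453), while HSC and BM differed by -0.09 (SE 0.23, adjusted p = 0.964). Summed early B cell markers were also lower in the MSC group, as given above, and their part in the values of Reln and Col5a3 was not tested. The call against HSC was kept only without either BM array (adjusted p from 0.0423 to 0.207), and that against BM only without BM replicate 1 (0.0416 to 0.152).

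Tnc, Thbs2 and the remaining matricellular genes differed from Reln. Tnc, which encodes tenascin C, a protein of remodelling tissue, read 12.35 and 12.10 in BM, 13.02 and 13.21 in HSC and 13.24 and 13.30 in MSC. The HSC and MSC arrays lay above both BM arrays, and the MSC arrays lay above the HSC arrays by a small margin. Against BM the log2 difference was 1.05 in MSC (SE 0.21, adjusted p = 0.133) and 0.89 in HSC (SE 0.21, adjusted p = 0.633), and MSC and HSC differed by 0.16 (SE 0.21, adjusted p = 0.726), a difference that was -0.13 under median scaling. Thbs2, which encodes thrombospondin 2, read 8.12 and 8.08 in MSC, was not above background on either HSC array (7.14 and 7.10) and was so on 1 BM array (7.10 and 7.76). The MSC arrays were close to each other and above the other 4. Its difference from BM was 0.67 (SE 0.26, adjusted p = 0.369), and against HSC the adjusted p was 0.154. Thbs1 was above background on no array, and Postn on MSC replicate 2 only.

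In the mineralized bone matrix, Mgp rose in MSC marrow. Matrix Gla protein is a secreted inhibitor of calcification made by cartilage, vessel wall and stromal cells. Mgp read 9.42 and 9.44 in BM, 9.21 and 9.56 in HSC and 11.28 and 12.14 in MSC. Both MSC arrays lay above all others, and BM and HSC overlapped. Mgp was 5.02-fold higher in MSC than in HSC (log2 difference 2.33, SE 0.31, limma adjusted p = 0.0436) and 4.86-fold higher than in BM (2.28, SE 0.31, adjusted p = 0.0461). HSC and BM differed by -0.05 (SE 0.31, adjusted p = 0.989). Without MSC replicate 2 the differences were 1.90 and 1.85 and neither passed (adjusted p = 0.108 and 0.115). Against HSC the call was also lost without either HSC array, and against BM it was kept only without MSC replicate 1 (adjusted p = 0.0286).

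Spp1 encodes osteopontin, a phosphoprotein of bone that osteoclasts and activated macrophages also make. It read 10.49 and 9.05 in BM, 10.37 and 9.68 in HSC and 11.43 and 12.46 in MSC. Both MSC arrays were above the other 4, and within each group the arrays lay far apart. Differences of 1.93 from HSC (SE 0.55, adjusted p = 0.172) and 2.18 from BM (SE 0.55, adjusted p = 0.224) did not pass. The difference from BM was 2.90 without BM replicate 1 and 1.46 without BM replicate 2, and that from HSC was 1.41 without MSC replicate 2. On MSC replicate 2, where Spp1 and Mgp were highest, the summed macrophage and osteoclast markers were highest too, and their part in these values was not tested. Bglap, which encodes osteocalcin, the product of mature osteoblasts, is named outside the rule, after its values were seen. It read 8.09 and 8.50 in BM, 9.55 and 10.28 in HSC and 8.64 and 10.30 in MSC. Its HSC arrays lay above both BM arrays and overlapped MSC. The differences were 1.62 between HSC and BM (SE 0.53, adjusted p = 0.894) and -0.45 between MSC and HSC (adjusted p = 0.704). The mouse has near-identical copies of osteocalcin genes, so this probe may read more than 1 of them.

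**Figure D3:**
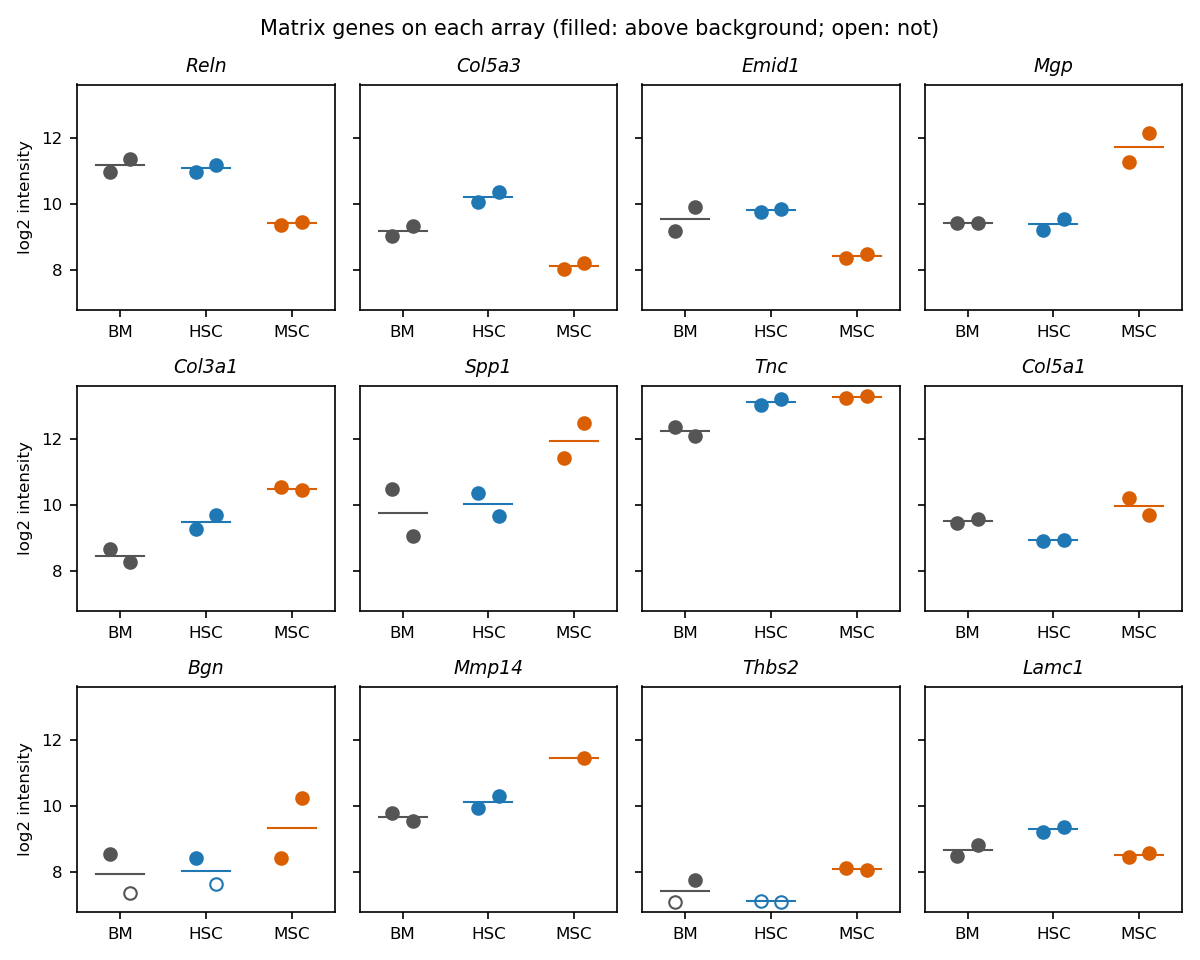
Log2 intensity (vertical axis) of 12 matrix genes on each of the 6 arrays, by group, with lines at the group means. Filled points are above background and open points are not. MSC arrays lie below all others for Reln, Col5a3 and Emid1. They lie above all others for Mgp, Col3a1, Spp1, Col5a1, Thbs2 and, by a small margin, Tnc. Mmp14 has 1 usable MSC array.

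Mmp14, the membrane-bound protease that cuts fibrillar collagen at the cell surface, had a value on 1 MSC array only. It read 9.80 and 9.55 in BM, 9.94 and 10.29 in HSC and 11.45 on MSC replicate 2. The differences, which rest on that array, were 1.34 from HSC (SE 0.29, adjusted p = 0.134) and 1.77 from BM (SE 0.30, adjusted p = 0.107). Timp3, an inhibitor that binds to the matrix itself, read 8.99 and 9.01 in BM, 8.32 on both HSC arrays and 8.80 and 9.44 in MSC. HSC was lowest, and MSC and BM overlapped. The difference between MSC and HSC was 0.81 (SE 0.26, adjusted p = 0.202) and that between HSC and BM -0.69 (SE 0.25, adjusted p = 0.897). Timp1, an inhibitor named outside the rule after its values were seen, was above background in the MSC group alone (8.06 and 8.35) and was at least 1.58-fold higher there than in HSC (adjusted p = 0.210). Of the 5 genes of proteolysis 4 were tested between MSC and HSC and 5 between MSC and BM, and 0 passed, with 3 and 2 at an unadjusted p under 0.05 (16.9% and 12.4% of all probes).

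Counted over the whole set, 23 of the 29 genes tested between MSC and HSC had a log2 difference above 0, with a median of 0.68 (0.02 over all tested probes). The 3 called genes stand beside 0.48% of all 11660 tested probes called in either direction. These 3 were among the 5 genes singled out with their direction known, so that nothing is read from this count. Groups did not overlap for 20 of 28 genes with both arrays in each group, and in 16 of these MSC was higher, beside 51.3% and 24.8% of all probes. An unadjusted p under 0.05 was found for 17 of 29 genes and for 16.9% of all probes. Some genes were tested only because both MSC arrays were above background, among them Col6a1, Serpinh1, Thbs2 and Timp1. That filter favours differences above 0. Nothing is therefore read from the counts or the median of the tested genes, here or by class. Over the 19 genes above background on all 6 arrays, which the filter did not choose for being high in 1 group, the median was 0.40 (-0.013 over all such probes). Over all 40 genes with no filter it was 0.46 (0.002 over all probes). The list itself was drawn up with earlier results of these data known, so that nothing is read from these medians either. Without MSC replicate 2 the median of the tested genes was 0.43 and 0 genes were called.

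Between MSC and BM, 25 of 31 tested genes had a difference above 0, with a median of 0.99 (0.01 over all tested probes). The 3 called genes stand beside 0.43% of 11861 probes. All of them were also among the genes singled out with their direction known, so that nothing is read from this count. MSC and BM did not overlap for 23 of 30 genes, 20 of them with MSC higher, beside 42.3% and 20.5% of all probes. An unadjusted p under 0.05 was found for 20 of 31 genes and for 12.4% of probes. Here too the filter let in genes above background in the MSC group alone, such as Col5a2, Col6a1 and Timp1. Nothing is therefore read from the counts or the median of the tested genes. Nor is anything read from the medians that follow, since the list was drawn up with earlier results known. The median was 0.99 over the 19 genes above background on all arrays (-0.004 over all such probes). With no filter the median was 0.82 over the 40 genes (-0.001 over all probes). Without MSC replicate 2 it was 0.62 and 0 genes were called.

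Between HSC and BM the median of 22 tested genes was 0.37 (0.01 over all tested probes) and 15 were above 0. No gene was called by limma, beside 0.0359% of 11153 probes, or by the methods' t-test after Benjamini-Hochberg adjustment, while 11 genes had an unadjusted p under 0.05, beside 5.37% of probes. Groups did not overlap for 13 of 21 genes, 11 of them with HSC higher, beside 36.6% and 20.4% of all probes. Any 2 of the 3 comparisons share the arrays of 1 group, so that their values are given side by side only.

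**Figure D4:**
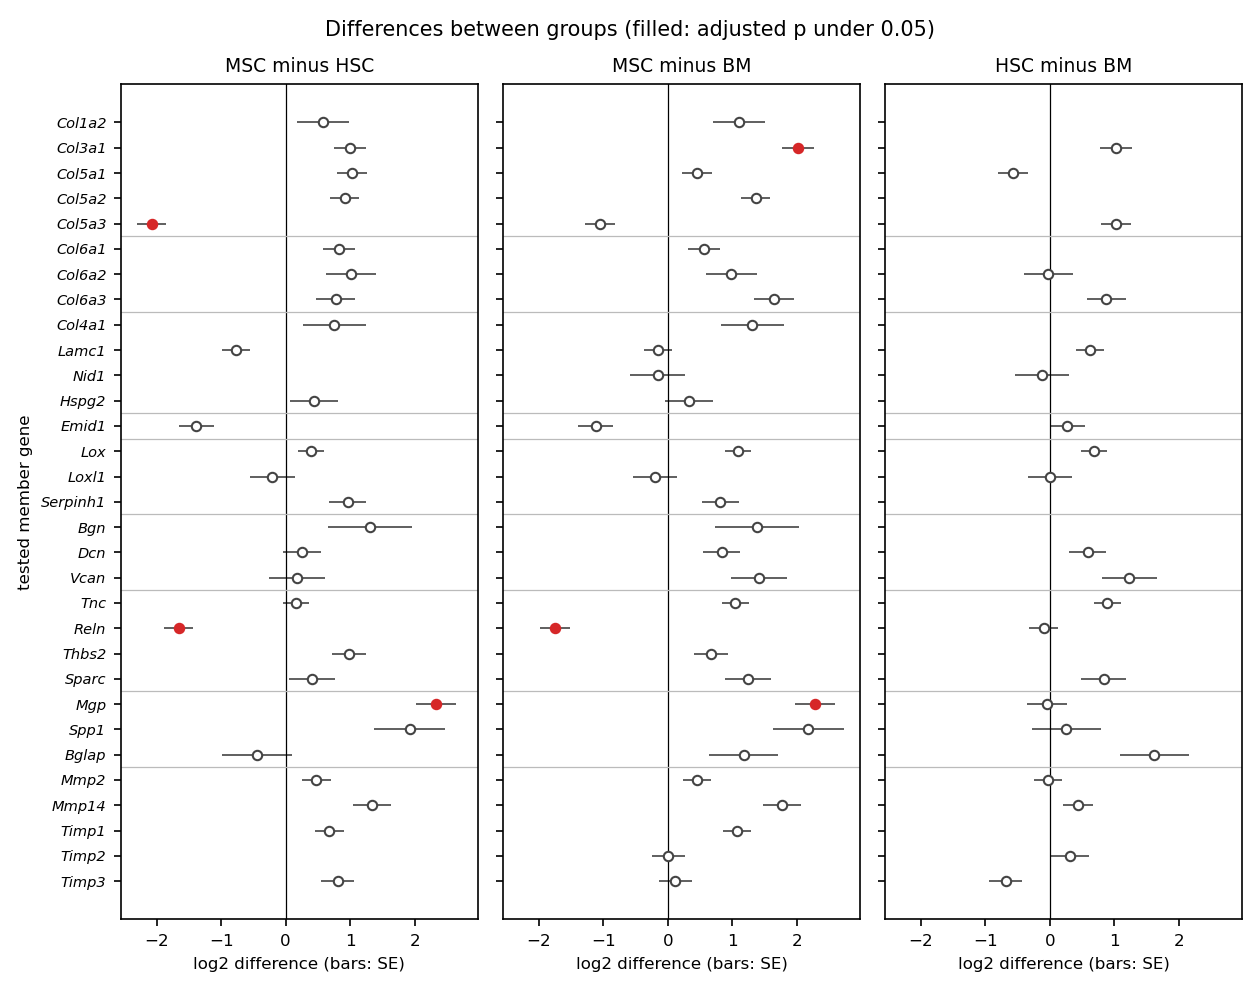
Log2 differences (horizontal axis, bars are standard errors of the limma fit) of the tested matrix genes in the 3 comparisons, ordered by role class. Filled points passed an adjusted p of 0.05, which holds for Mgp, Col5a3 and Reln between MSC and HSC and for Col3a1, Mgp and Reln between MSC and BM.

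A wider list of 84 other genes of the same classes, 81 of them with values, gave smaller medians. Between MSC and HSC 17 of 29 tested genes were above 0 with a median of 0.06, between MSC and BM 20 of 27 with a median of 0.29, and between HSC and BM 16 of 21 with a median of 0.23. None passed limma or the adjusted t-test in any comparison, and 5, 7 and 3 had an unadjusted p under 0.05, beside 16.9%, 12.4% and 5.37% of all tested probes. The difference of medians between the lists was not tested. Col27a1, a fibrillar collagen of cartilage, had the lowest value of the list between MSC and HSC, with 10.59 and 11.13 on the HSC arrays and 8.50 and 9.40 on the MSC arrays (difference -1.91, adjusted p = 0.0831). Mmp13, the collagenase of bone and cartilage, had the highest between MSC and BM, with 7.50 and 7.31 in BM, above background on 1 of these arrays, and 9.29 and 9.58 in MSC (adjusted p = 0.0663). Of the genes of the osteoblast programme and bone matrix in this list, 4 were tested between MSC and HSC, with differences from -0.30 to 0.27.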

How the data were processed

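CodeLink UniSet 20K arrays of marrow RNA were read by the authors with CodeLink Expression Analysis 4.0.0.23520. The authors deposited, for each array, spot mean and local background intensity and a quality mark for 20289 spots, of which 19801 were gene probes. The authors also deposited a table of log2 values, quantile normalized over the arrays, whose order on each array was that of the absolute difference of spot and background. Per the labels the array protocol was a human one, while the methods name the mouse array. Intensities were background-corrected with normexp (offset 50), quantile normalized and log2 transformed, and 209 to 558 spots an array with the scanner marks for bad, contaminated or excluded spots were left out. Between 11072 and 12510 probes were above background on an array. Precision is limited by the small number of arrays. Nothing says whether pools are independent experiments beyond their separate mice, so p-values measure the spread between arrays. limma 3.58.1 (R 4.3.3) was fitted to all 6 arrays (3 residual degrees of freedom), and p-values were adjusted by Benjamini-Hochberg over all tested probes, those above background throughout either of the groups compared, with a threshold of 0.05. Bounds on fold changes use, for a dim group, the higher of its own signal and the lowest signal above background. Probes were named through their sequence record (10712), gene number (3642) or array annotation (278), and 5169 had no name. Members and lists were chosen with earlier results of these data known. Named with values were the 5 genes singled out, every gene past the threshold, and in each class the 2 largest tested differences between MSC and HSC and the brightest gene. The code was tested on simulated data. Alternatives were other background corrections, normalizations, filters and fits, leaving out each array, and the methods' unpaired t-test. Promoter sequence came from RefSeq. Python 3.11.15 and matplotlib 3.10.9 drew the figures.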

Additional observations from a re-analysis of the deposited data

How the results depend on the processing

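Of 973 values of named genes under alternatives, 893 kept their direction and side of the threshold, 60 were no longer past it, 2 newly passed and 18 changed sign, of which 0 belonged to a called difference. Median scaling gave -0.13 for Tnc between MSC and HSC and -0.016 for Loxl1 between HSC and BM. Leaving out 1 array at a time gave, between MSC and HSC, -0.59 to 0.18 for Loxl1 and -0.091 to 0.60 for Dcn, and between MSC and BM -0.31 to 0.017 for Lamc1, -0.54 to 0.14 for Loxl1 and -0.20 to 0.44 for Timp3. Between HSC and BM it gave -0.30 to 0.11 for Reln, -0.081 to 0.62 for Emid1, -0.23 to 0.13 for Mgp, -0.40 to 0.36 for Col6a2, -0.38 to 0.40 for Loxl1 and -0.46 to 0.97 for Spp1. Between MSC and HSC, where 3 genes were called, subtracted background with a floor, an offset of 16 and the deposited values each called 1 gene, Col5a3, and no dim filter, the replicate block by pool number and the methods' t-test called 0. Median scaling, cyclic loess, probes above background on all arrays, the 4 compared arrays alone and an intensity trend called 3. Leaving out 1 array called 0 to 3 (0 without either HSC array or MSC replicate 2, and 1, Mgp, without MSC replicate 1). Between MSC and BM, where 3 were called, subtracted background, the deposited values, no dim filter, the 4 compared arrays alone, the replicate block and the t-test called 0, an offset of 16 called 2, and leaving out 1 array called 0 to 2. Between HSC and BM every alternative called 0. Pool numbers were not taken to pair the arrays, since no label gives them a shared batch and the deviations of same-numbered arrays correlated at 0.57 for BM and HSC but at -0.28 for BM and MSC and -0.20 for HSC and MSC. A replicate block with the MSC numbers crossed, added after seeing the data, called 4 genes in each comparison with MSC and 0 between HSC and BM. The causes were not tested. Median scaling moved the median of all probes most, between MSC and HSC, from 0.0157 to -0.0646 (a shift of -0.0803). A block by slide or scan could not be run because each array was its own slide, and the mean over probes equals the single probe. Signal near background left 9 of the 40 genes with values untested in every comparison.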
